A study of Mus musculus with 20 samples.

Results

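A set of 10 genes that mark astrocytes was followed in the frontal cortex of mice with a knock-in of TDP-43, an RNA-binding protein encoded by Tardbp. The 10 genes are Gfap, Aqp4, Aldh1l1, Slc1a2, Slc1a3, Gja1, Gjb6, Aldoc, S100b and Glul. They were taken by name from the 25965 rows of the deposited table of raw counts, and each of the 10 had a row that passed the filter on low counts. The tissue came from 5-month-old C57BL/6 mice of 3 genotypes, all sequenced as stranded libraries of polyadenylated RNA. The homozygous group (Q331K/Q331K) held 8 libraries, the heterozygous group (Q331K/+) 6 and the wild-type group (+/+) 6. The substitution Q331K sits in the endogenous gene in a knock-in, so no promoter or Cre line limits the cells that carry it.

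Astrocytes are glial cells that surround synapses and blood vessels. They take up glutamate released by neurons through the transporters encoded by Slc1a2 and Slc1a3, and turn it into glutamine with the enzyme encoded by Glul. They hold water channels at the vessel wall and are joined to each other by gap junctions built of connexins. Gfap, an intermediate filament of the cytoskeleton, is widely read as a sign of reactive astrocytes.

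Library totals ran between 69312426 and 105412832 counts in homozygotes, between 61282647 and 111440766 counts in heterozygotes and between 75168829 and 96821696 counts in wild type. Genes that mark the lining of the ventricles were higher in some libraries than in others. Summed levels of 8 ependymal genes were 9.49 to 23.7 CPM in homozygotes, 9.96 to 17.8 CPM in heterozygotes and 9.12 to 10.96 CPM in wild type, with Foxj1 at 2.75 to 7.55, 3.53 to 6.20 and 3.43 to 3.84 CPM in the same order. CPM are counts scaled to the depth of their library, adjusted by edgeR's TMM factors. The mean z score of these genes was above 0.5 in homozygous replicates 1, 2 and 4 and in heterozygous replicate 2. The score of 7 olfactory bulb genes was above 1 in homozygous replicates 2, 5 and 8. Their summed levels were 18.6 to 115 CPM in homozygotes, 18.4 to 25.8 CPM in heterozygotes and 17.5 to 40.1 CPM in wild type. The defining marker Eomes ran from 0 to 8.61, 0.034 to 0.60 and 0.042 to 1.67 CPM in the same order. These libraries are named below wherever a marker depends on them.

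The 10 markers were detected in every library and spanned a wide range of levels. Per kilobase of annotated exon, Glul stood highest in wild type at 611 ± 33.0 CPM per kb (SD, n = 6), followed by Aldoc at 293 ± 31.8 and Slc1a2 at 204 ± 4.91. Slc1a3 at 79.3 ± 3.46 and S100b at 78.2 ± 4.21 CPM per kb came next, and their wild-type ranges overlapped. The 5 others lay between 15.8 CPM per kb (Aldh1l1) and 18.4 CPM per kb (Gjb6), and in this stretch of the order each range overlapped the next. The first 5 places and the last were held by the same genes in all 3 genotypes.

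Between homozygous and wild-type cortex the marker estimates had both signs and none passed the test. None of the 10 reached an adjusted p under 0.05 over the 16690 genes tested (edgeR quasi-likelihood test, Benjamini-Hochberg), where 1.56% of all genes did. At an unadjusted p under 0.05, Aqp4 was higher and Gjb6, Aldh1l1, Aldoc, Glul and S100b were lower in homozygotes, which is 1 gene of 10 above and 5 of 10 below, against 8.05% and 8.06% of all genes. The median log2 change of the 10 was -0.077, beside 0.0013 over all genes. No marker had homozygous and wild-type CPM ranges free of overlap, as 0.779% of all genes had. In bulk tissue, fewer astrocytes and less RNA per astrocyte cannot be told apart.

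**Figure D1:**
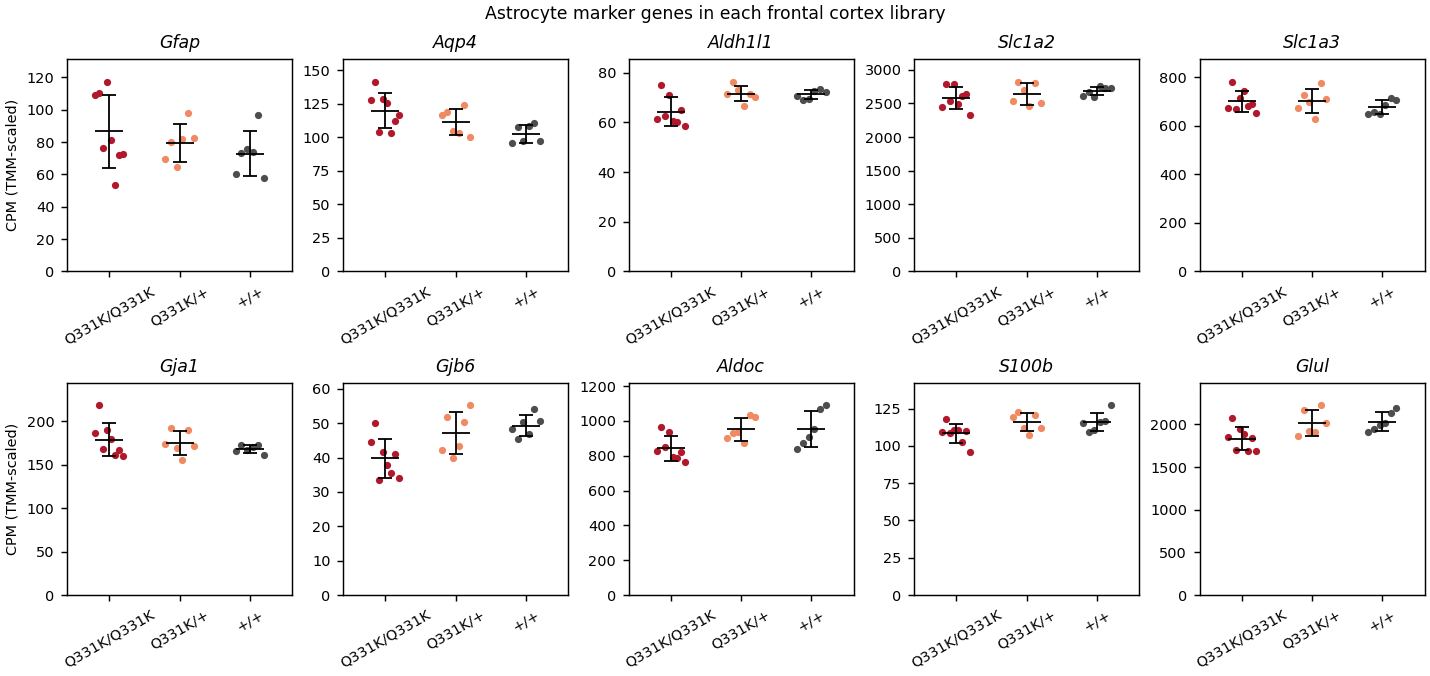
Level of each of the 10 astrocyte markers in CPM, 1 panel a gene with its own axis from 0, with 1 point a library and the mean and SD as bars, for homozygous (Q331K/Q331K, n = 8), heterozygous (Q331K/+, n = 6) and wild-type (+/+, n = 6) mice. Homozygous and wild-type points overlap in every panel.

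The markers of the cytoskeleton and of the vessel-facing membrane had the highest estimates. Gfap (chromosome 11, 102887336 to 102900912, minus strand, GRCm38 as in the deposited table) ranged from 53.3 to 117 CPM with a median of 79.1 in homozygotes, from 64.4 to 98.2 with a median of 81.0 in heterozygotes, and from 57.8 to 96.7 with a median of 73.5 in wild type. Both the lowest and the highest of the 20 libraries were homozygous, replicates 6 and 4, so the spread within homozygotes took in the whole wild-type range. The log2 change in homozygotes was 0.25 with a standard error of 0.17, and its 95% interval was -0.10 to 0.60 (adjusted p = 0.506, edgeR). Gfap stood at 109, 110 and 117 CPM in homozygous replicates 1, 2 and 4, the 3 homozygous libraries of high ependymal score, and at 53.3 to 81.6 CPM in the other 5. Heterozygous replicate 2, which also had a high ependymal score, stood at 80.2 CPM, near the heterozygous median. No wild-type library had a high score, so score and genotype cannot be fully told apart. With the 4 libraries of high ependymal score left out the change was -0.035 (adjusted p = 0.932, edgeR), and with the ependymal and olfactory scores as covariates it was -0.15.

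Aqp4 encodes the main water channel of astrocyte endfeet and spans bases 15389394 to 15403684 of chromosome 18 (minus strand). Its level ran from 104 to 142 CPM with a median of 121 in homozygotes, from 101 to 124 with a median of 111 in heterozygotes, and from 95.7 to 111 with a median of 102 in wild type. Of 8 homozygous libraries, 6 lay above the highest wild-type library, and replicates 3 and 6 lay within the wild-type range. The change was 0.22 with a standard error of 0.067 (95% interval 0.08 to 0.36, adjusted p by edgeR = 0.0940). DESeq2 called it (adjusted p = 0.0220), and edgeR did not with the libraries of high ependymal score left out, at 0.13 (adjusted p = 0.301), nor without the 3 of high olfactory score, at 0.17 (adjusted p = 0.287). With both scores as covariates the edgeR estimate was 0.076 (adjusted p = 0.571).

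The metabolic markers had negative estimates in homozygotes, none past the threshold in the edgeR fit by genotype of all 20 libraries. Aldh1l1 (chromosome 6, 90486427 to 90600203, plus strand), a folate enzyme used as a pan-astrocyte marker, ran from 58.5 to 75.01 CPM with a median of 62.0 in homozygotes, from 66.7 to 76.3 with a median of 71.6 in heterozygotes, and from 69.1 to 73.4 with a median of 71.4 in wild type. The wild-type libraries lay close together, and the homozygous libraries reached both below and above them, with replicate 2 as the highest of the 8. The change was -0.15 with a standard error of 0.045 (95% interval -0.24 to -0.05, adjusted p by edgeR = 0.0939). Without homozygous replicate 2 it was -0.18 and passed (adjusted p = 0.0132), and with the libraries of high ependymal score left out it came to -0.21 and passed (adjusted p = 0.00202).

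Glul (chromosome 1, 153899944 to 153909723, plus strand) encodes glutamine synthetase. Its level ran from 1683 to 2071 CPM with a median of 1847 in homozygotes, from 1866 to 2222 with a median of 1968 in heterozygotes, and from 1907 to 2193 with a median of 2005 in wild type. The groups overlapped, with homozygous replicate 6 lowest of all 20. The change was -0.15 with a standard error of 0.048 (adjusted p by edgeR = 0.124), and it passed at -0.18 without homozygous replicate 2 (adjusted p = 0.0468) and at -0.21 with the libraries of high ependymal score left out (adjusted p = 0.0276).

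Aldoc (chromosome 11, 78322968 to 78327781, plus strand), the aldolase of astrocyte glycolysis, averaged 843 ± 71.7 CPM in homozygotes (SD, n = 8), 951 ± 64.6 in heterozygotes and 956 ± 104 in wild type (SD, n = 6 each). Its change was -0.18 with a standard error of 0.062 (adjusted p by edgeR = 0.146), and no alternative called it. S100b (chromosome 10, 76253853 to 76261159, plus strand), a calcium-binding protein that astrocytes also secrete, averaged 108 ± 6.45 CPM in homozygotes (SD, n = 8) and 116 ± 6.25 CPM in wild type (SD, n = 6). Its change of -0.098 had an adjusted p by edgeR of 0.227, and homozygous replicate 8 was the lowest of the 20 libraries for both Aldoc and S100b.

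The glutamate transporters had the smallest estimates of the 10. Slc1a2 (chromosome 2, 102658659 to 102790784, plus strand), the main forebrain glutamate transporter, ran from 2328 to 2795 CPM with a median of 2576 in homozygotes, from 2457 to 2822 with a median of 2623 in heterozygotes, and from 2603 to 2753 with a median of 2700 in wild type. Slc1a3 (chromosome 15, 8634124 to 8710764, minus strand), the transporter best known from radial glia and cerebellar astrocytes, ran from 653 to 780 CPM with a median of 685 in homozygotes, from 629 to 774 with a median of 703 in heterozygotes, and from 648 to 715 with a median of 671 in wild type. The changes in homozygotes were -0.056 (95% interval -0.14 to 0.025, adjusted p by edgeR = 0.515) and 0.048 (95% interval -0.042 to 0.14, adjusted p by edgeR = 0.637). All groups overlapped for both genes, and without homozygous replicate 2 the Slc1a3 estimate was 0.023.

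The connexin estimates had opposite signs. Gja1 (chromosome 10, 56377300 to 56390419, plus strand) encodes connexin 43 and Gjb6 (chromosome 14, 57123303 to 57133611, minus strand) connexin 30, the principal gap junction proteins of astrocytes. Gja1 ran from 161 to 218 CPM with a median of 174 in homozygotes, from 155 to 192 with a median of 172 in heterozygotes, and from 161 to 173 with a median of 169 in wild type, a change of 0.086 in homozygotes (adjusted p by edgeR = 0.498), or 0.039 without homozygous replicate 2. Gjb6 ran from 33.6 to 50.1 CPM with a median of 39.4 in homozygotes, from 40.0 to 55.2 with a median of 46.9 in heterozygotes, and from 45.3 to 54.1 with a median of 49.4 in wild type. Only homozygous replicate 2 lay within the wild-type range of Gjb6, and the other 7 were below it. The Gjb6 change was -0.31 with a standard error of 0.088 (95% interval -0.50 to -0.13, adjusted p by edgeR = 0.0791). It passed without homozygous replicate 2 at -0.37 (adjusted p = 0.0190), with the libraries of high ependymal score left out at -0.44 (adjusted p = 0.00669) and by DESeq2 (adjusted p = 0.00861), and it did not pass without those of high olfactory score, at -0.33 (adjusted p = 0.0956).

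**Figure D2:**
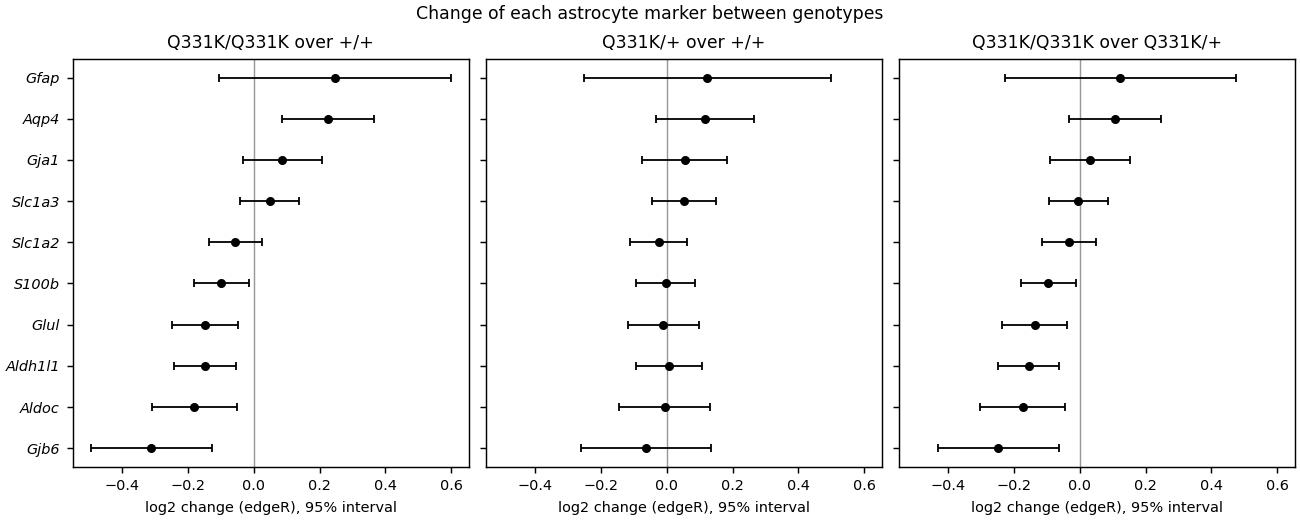
Estimated log2 change of each marker with its 95% interval (edgeR) for homozygous over wild type, heterozygous over wild type and homozygous over heterozygous, 1 panel a comparison. In the first panel the estimates run from -0.31 for Gjb6 to 0.25 for Gfap, and in the second all 10 intervals take in 0.

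A ratio of 2 genes within a library cancels its depth, so 2 pairs of related markers were compared that way. The pairs share a role: both connexins form astrocyte gap junctions, and both transporters clear glutamate. The bases just before the RefSeq transcription start of these 4 genes are shown because each pair is compared within a library (RefSeq, GRCm38.p6, 250 bases upstream, 5′ to 3′ on the gene's strand). Capitals mark matches, on either strand, to 4 promoter motifs. The first, the TATA motif of core promoters, was searched as TATAAA. The binding sequence of NF-Y was searched as CCAAT. The GC box of Sp1 was searched as GGGCGG. The site of STAT factors was searched as TTCNNNGAA.
Gjb6 (chr14:57133612-57133861, minus strand): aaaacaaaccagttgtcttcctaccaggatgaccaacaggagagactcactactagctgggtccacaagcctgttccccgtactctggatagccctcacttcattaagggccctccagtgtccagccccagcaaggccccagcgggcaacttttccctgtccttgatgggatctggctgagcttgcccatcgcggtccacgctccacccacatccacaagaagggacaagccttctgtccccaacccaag
Gja1 (chr10:56377050-56377299, plus strand): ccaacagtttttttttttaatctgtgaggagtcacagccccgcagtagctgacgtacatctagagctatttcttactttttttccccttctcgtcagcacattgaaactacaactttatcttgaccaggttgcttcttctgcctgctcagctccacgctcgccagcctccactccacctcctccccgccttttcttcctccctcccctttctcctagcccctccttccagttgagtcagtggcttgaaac
Slc1a2 (chr2:102706188-102706437, plus strand): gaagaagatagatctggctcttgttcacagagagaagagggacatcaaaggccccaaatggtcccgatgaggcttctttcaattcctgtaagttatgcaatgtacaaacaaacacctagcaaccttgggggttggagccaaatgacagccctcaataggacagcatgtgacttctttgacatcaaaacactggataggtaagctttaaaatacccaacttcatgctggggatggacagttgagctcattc
Slc1a3 (chr15:8710808-8711057, minus strand): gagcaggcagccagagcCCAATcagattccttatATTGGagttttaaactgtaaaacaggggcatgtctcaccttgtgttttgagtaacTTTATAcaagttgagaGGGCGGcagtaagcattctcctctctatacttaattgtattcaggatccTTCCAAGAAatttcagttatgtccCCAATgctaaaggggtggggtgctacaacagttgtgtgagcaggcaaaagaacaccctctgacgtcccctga

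The Slc1a3 window held 3 NF-Y motifs, a TATA motif, a GC box and a STAT motif, which do not overlap, while none of the 4 motifs was found in the windows of Slc1a2, Gja1 and Gjb6. Of all 32851 RefSeq windows of that length, 12.4% held the TATA motif, 33.8% the NF-Y motif, 32.7% the GC box and 7.02% the STAT motif. Of the 9 markers with a window, 1 held the TATA motif, 4 the NF-Y motif, 4 the GC box and 2 the STAT motif. The Slc1a2 window starts inside the gene interval of the deposited table, since RefSeq's start differs from it. G and C made up 56.8% of the Gjb6 window, 50% of the Gja1 window and 44.8% of each transporter's, beside a median of 52.4% over all windows.

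The ratio of Gjb6 to Gja1 counts separated homozygotes from wild type without overlap. It ran from 0.19996 to 0.245 with a median of 0.220 in homozygotes, from 0.237 to 0.322 with a median of 0.268 in heterozygotes, and from 0.262 to 0.314 with a median of 0.297 in wild type. All 8 homozygous libraries lay below the lowest wild-type library, and heterozygotes overlapped both. The mean log2 ratio was lower in homozygotes than in wild type by a difference of -0.40 with a standard error of 0.055 (two-sided exact permutation p = 0.000333, the smallest that the 3003 splits allow; 0.0020 after Benjamini-Hochberg adjustment over 6 ratio tests). Homozygotes differed from heterozygotes by -0.28 (exact permutation p = 0.0020, adjusted 0.00599). Heterozygotes differed from wild type by -0.12, which did not pass (exact permutation p = 0.141, adjusted 0.169), though without heterozygous replicate 6 the difference was -0.18 (exact permutation p = 0.0281). With the libraries of high ependymal score left out the homozygous difference from wild type was -0.43, and without those of high olfactory score it was -0.38. The exact permutation p was 0.00216 each, the smallest possible for the libraries left. Homozygous and wild-type ratios do not overlap, so leaving libraries out could not make them overlap, and these p-values are no further support. A ratio shows unequal change of the pair and not which gene changed. How often other pairs of genes separate the same groups was not computed, for this ratio or the next. The markers were chosen with earlier results of these data known, and Gjb6 had the smallest p of them in homozygotes against wild type (edgeR). The adjustment over 6 ratio tests does not cover that choice.

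The ratio of Slc1a2 to Slc1a3 was also lower in mutant than in wild-type libraries. It ran from 3.37 to 3.90 with a median of 3.73 in homozygotes, from 3.53 to 3.91 with a median of 3.83 in heterozygotes, and from 3.81 to 4.08 with a median of 4.01 in wild type. Every library of both mutant groups lay below the wild-type median, and the ranges overlapped. Homozygotes differed from wild type by -0.11 on the log2 scale (standard error 0.030, two-sided exact permutation p = 0.00733, adjusted 0.0147), 8 of 8 libraries lying below the wild-type median. Heterozygotes differed from wild type by -0.075 (standard error 0.029, exact permutation p = 0.0216, adjusted 0.0325), and homozygotes from heterozygotes by -0.030 (exact permutation p = 0.438). The heterozygous difference did not pass without wild-type replicate 1, 2, 3 or 4 (exact permutation p = 0.0541 to 0.0606). Without the 3 libraries of high olfactory score the homozygous difference was -0.060 (exact permutation p = 0.0303).

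**Figure D3:**
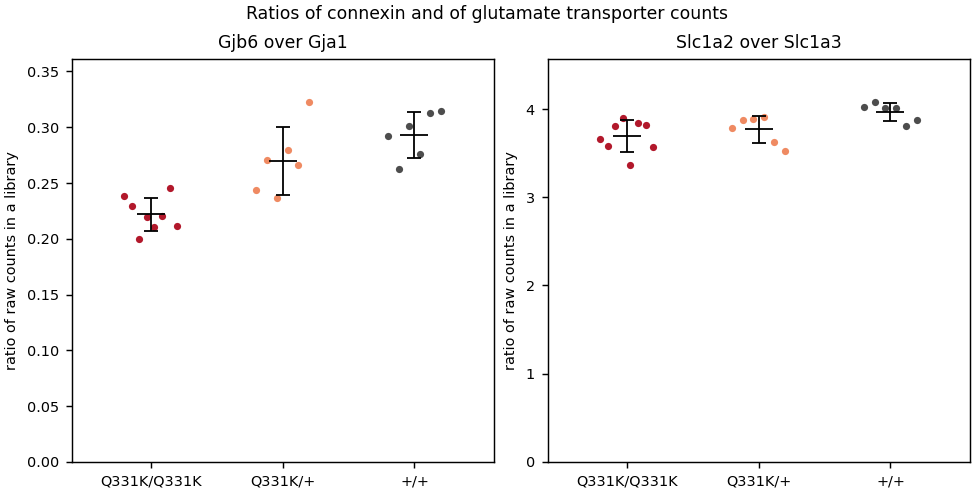
Ratio of raw counts within each library for Gjb6 over Gja1 (left) and Slc1a2 over Slc1a3 (right), with 1 point a library, the mean and SD as bars and axes from 0, for homozygous, heterozygous and wild-type mice. Homozygous points of the connexin ratio lie between 0.19996 and 0.245, below every wild-type point, and those of the transporter ratio lie between 3.37 and 3.90.

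The heterozygous libraries gave no called marker. None of the 10 passed in heterozygotes against wild type, at an adjusted or an unadjusted p under 0.05 (edgeR; DESeq2 and limma voom called 0 as well), where 0% and 3.19% of all genes passed by edgeR, 0.012% by DESeq2 and 0% by voom. Estimates ran from -0.064 for Gjb6 to 0.12 for Gfap and Aqp4, and their median was 0.0023. With single libraries left out, the estimate for Gjb6 ran from -0.11 (heterozygous replicate 6 left out) to -0.022 (heterozygous replicate 3), and that for Gfap from 0.053 (heterozygous replicate 5) to 0.22 (wild-type replicate 5). The interval for Gjb6 was -0.26 to 0.13 and that for Aqp4 -0.032 to 0.27, so the interval for Aqp4 took in the homozygous estimate.

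Homozygotes and heterozygotes were also compared, with the same homozygous libraries as above. None of the 10 passed (edgeR, adjusted), where 0.108% of all genes did, and Aldh1l1, Gjb6, Aldoc, Glul and S100b were lower at an unadjusted p under 0.05, as 6.29% of all genes were. The smallest p belonged to Aldh1l1, with a change of -0.16 (standard error 0.045, adjusted p by edgeR = 0.238). It passed without homozygous replicate 2 at -0.19 (adjusted p = 0.0312) and with the libraries of high ependymal score left out at -0.20 (adjusted p = 0.0196). Fitted as a trend over 0, 1 and 2 alleles, Gjb6 had an estimate of -0.16 per allele (adjusted p by edgeR = 0.0667), Aqp4 by 0.11 (adjusted p = 0.0749) and Aldh1l1 by -0.078 (adjusted p = 0.0917), and none of the 10 passed, beside 1.83% of all genes.

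In several libraries most markers lay on the same side of their genotype mean. In homozygous replicates 2 and 4, heterozygous replicate 5 and wild-type replicate 5, all 10 markers lay above the mean of their genotype. In homozygous replicate 8 and wild-type replicate 1 all 10 lay below it. Homozygous replicate 2 was the highest of the 20 libraries for Aqp4, Slc1a3 and Gja1, with a median deviation of 0.21 on the log2 scale, and homozygous replicate 8 was the lowest for Aldh1l1, Slc1a2, Aldoc and S100b, with a median deviation of -0.14. Homozygous replicate 2 had both a high ependymal and a high olfactory score and homozygous replicate 8 a high olfactory score. Mean z scores of oligodendrocyte and microglial genes were -1.995 and -1.59 in homozygous replicate 8 and 1.05 and 0.97 in homozygous replicate 2. They were 0.76 and 0.23 in homozygous replicate 4 and -0.301 and 1.18 in heterozygous replicate 5. In wild type they were -1.29 and 0.33 in replicate 5 and 0.36 and -0.72 in replicate 1. Whether the deviations are particular to astrocyte markers, and the part of other tissue in them, was not tested.

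**Figure D4:**
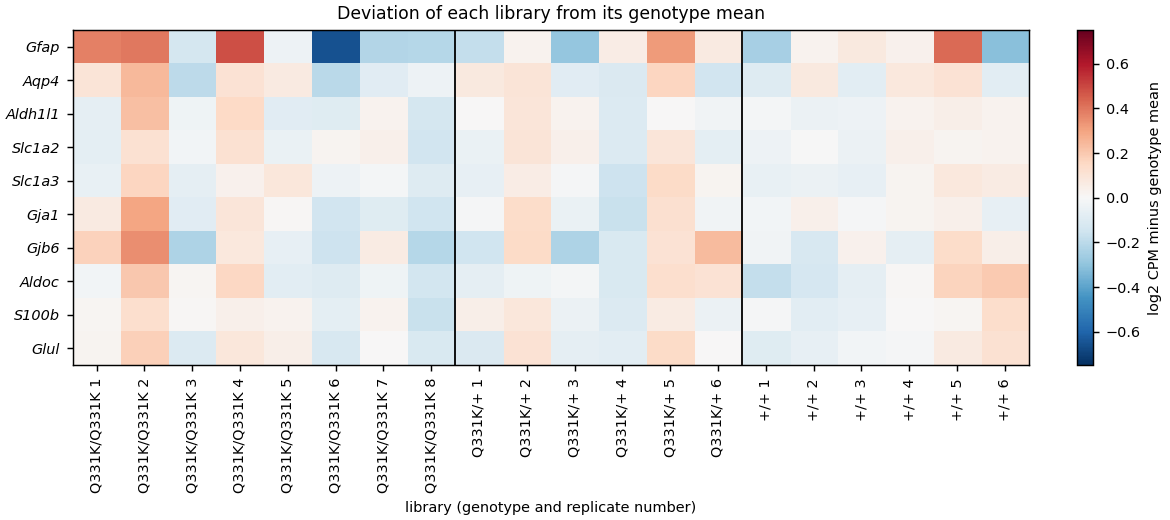
Log2 CPM of each marker minus the mean of its genotype, with a row per gene and a column per library; red is above and blue below the genotype mean. The columns of homozygous replicate 2 and heterozygous replicate 5 are red for all 10 genes and that of homozygous replicate 8 is blue for all 10.

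As a description over 20 libraries centred on their genotype means, which share library depth and dissection, the 45 pairs of markers had Pearson coefficients of 0.29 to 0.86 with a median of 0.66. Slc1a3 and Glul were closest at 0.86, and Gfap and Slc1a2 farthest apart at 0.29. Among 13869 genes of at least 1 CPM, those most like the mean z score of the 10 markers were Nwd1 (0.92), Cbs (0.91), Slc39a12 (0.90), Scd1 (0.90) and Clu (0.89). Of these, Cbs, Slc39a12 and Clu stood in the list of other astrocyte markers. Those most like Gfap alone were C4b (0.90), Vim (0.87), Tmem176a (0.86), Tmem176b (0.85) and Gpr108 (0.84), and C4b, a complement component, and Vim, an intermediate filament that pairs with Gfap, stood in the list of reactive astrocyte genes.

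**Figure D5:**
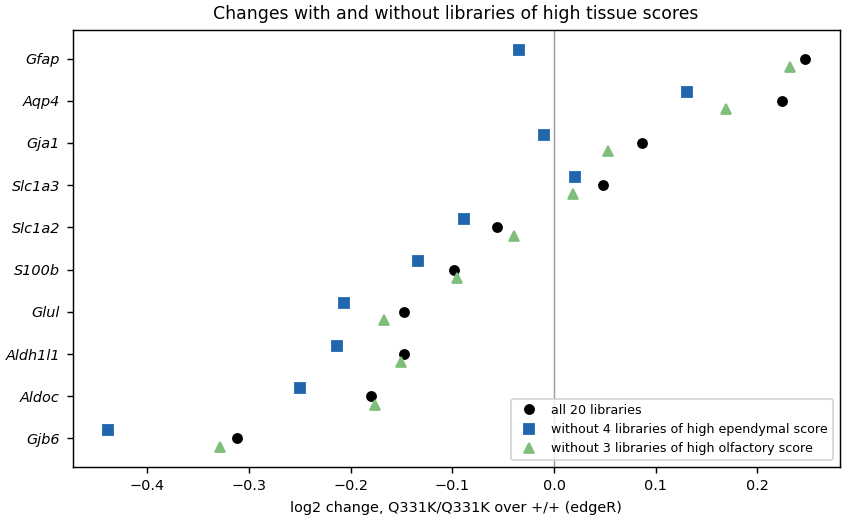
Estimated log2 change of each marker in homozygotes over wild type (edgeR) from all 20 libraries (circles), without the 4 libraries of high ependymal score (squares) and without the 3 of high olfactory score (triangles). The estimate for Gfap is -0.035 with the libraries of high ependymal score left out, beside 0.25 with all, and that for Gjb6 is -0.44, beside -0.31.

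Leaving out the 4 libraries of high ependymal score, which kept 5 homozygous and 5 heterozygous libraries, gave a lower estimate for every marker in homozygotes, as the plot with and without them shows. Then 3 markers passed, Aldh1l1, Gjb6 and Glul (edgeR, 1.52% of all genes), and the same 3 passed with both scores as covariates (1.62% of all genes). The libraries of high ependymal score were homozygous replicates 1, 2 and 4 and heterozygous replicate 2, and none was wild type. In homozygous replicates 2 and 4 all 10 markers lay above the homozygous mean, so leaving these out by itself lowers the homozygous estimates. Leaving out the 3 of high olfactory score left none (0.473% of all genes). With all libraries, DESeq2 called Aqp4, Aldh1l1 and Gjb6 (3.96% of all genes), limma voom Aldh1l1 and Gjb6 (1.8% of all genes) and the fit with the replicate number as a block Aqp4 (2.32% of all genes). Without homozygous replicate 2 alone, Aldh1l1, Gjb6 and Glul were called (1.69% of all genes), and against heterozygotes Aldh1l1 was (0.186% of all genes). Against heterozygotes Aldh1l1 was also called with the libraries of high ependymal score left out (0.126% of all genes). For the trend, DESeq2 called Aqp4, Aldh1l1 and Gjb6 (4.17% of all genes), voom Gjb6 (2.09%) and the block Aqp4 (2.29%). The trend called Aldh1l1 and Gjb6 without homozygous replicate 2 (1.78% of all genes), Aldh1l1, Gjb6 and Glul with the libraries of high ependymal score left out (1.16%) and Gjb6 and Glul with the covariates (1.52%).

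Beyond the 10, a list of 30 other astrocyte markers was tested in the same fit. In homozygotes 1 was raised and 0 were lowered (edgeR), where 0.641% and 0.923% of all genes were. Slc14a1, a urea transporter, averaged 9.57 ± 1.60 CPM in homozygotes (SD, n = 8), 7.62 ± 1.08 in heterozygotes and 6.64 ± 0.652 in wild type (SD, n = 6 each), a change of 0.53 with a standard error of 0.10 (adjusted p by edgeR = 0.0116). Its range was 7.51 to 11.5 CPM in homozygotes, against 5.86 to 7.59 CPM in wild type. It was called under 29 of 30 alternatives and lost with the tissue scores as covariates, at 0.33 (adjusted p = 0.105, edgeR). Of the 30, 25 had negative estimates in homozygotes, beside 49.4% of all genes, with a median of -0.080. At an unadjusted p under 0.05 (edgeR), 3 were higher and 11 lower in homozygotes, against 8.05% and 8.06% of all genes. In heterozygotes over wild type 24 had positive and 6 negative estimates, with a median of 0.021, where 48.8% of all genes were negative. Both comparisons share the wild-type libraries, and the signs of genes that vary together are not independent. Prodh, which starts proline breakdown, had -0.25 (adjusted p = 0.0588), Fgfr3, a growth factor receptor, -0.16 (adjusted p = 0.0661) and Chrdl1, a secreted BMP antagonist, 0.18 (adjusted p = 0.0661, edgeR for the 3). With the libraries of high ependymal score left out 2 of the 30 were raised and 5 lowered, with a median of -0.13, where 1.52% of all genes were called.

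Genes linked to reactive astrocytes did not pass. Of 28 listed, 26 were tested, none was called in homozygotes by edgeR, 4 were higher and 0 lower at an unadjusted p under 0.05 (8.05% and 8.06% of all genes), and the median change was 0.051. DESeq2 called 1, Cd109, as it did 3.96% of all genes. Cd109, a membrane glycoprotein, stood at 0.37 to 1.74 CPM in homozygotes and 0.21 to 0.66 CPM in wild type, with a change of 1.02 (adjusted p by edgeR = 0.110). Vim had 0.22 (adjusted p = 0.232), C4b 0.36 (adjusted p = 0.272) and Ggta1, a glycosyltransferase, 0.17 (adjusted p = 0.280, edgeR for the 3). The list's median was -0.014 with the libraries of high ependymal score left out.

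The partners of the 10 markers were tested as well. Of 11 genes that anchor Aqp4 or act beside it at the endfoot, none passed and the median change in homozygotes was 0.0084. Among them Kcnj10, the inward rectifier potassium channel of astrocytes, had -0.13 (adjusted p by edgeR = 0.225) and Dag1, which encodes dystroglycan, 0.064 (adjusted p = 0.458). With the libraries of high ependymal score left out, 1 of the 11, Kcnj10, was lowered, where 1.52% of all genes were called. Kcnj10 also stood in the list of 30 other astrocyte markers and is 1 of the 5 lowered there, so this is the same call. Of 11 other genes of the glutamate and glutamine cycle none passed by edgeR, with a median of -0.036. DESeq2 called 1 of them as lowered, where it called 3.96% of all genes, and 1 in the trend (4.17% of all genes). Slc38a2, a glutamine transporter, had -0.12 (adjusted p = 0.232, edgeR), at 120 ± 10.1 CPM in homozygotes (SD, n = 8) and 130.5 ± 10.7 CPM in wild type (SD, n = 6). Of 8 other connexins none passed, with a median of 0.092, and Gjb2, which encodes connexin 26, had 0.29 (adjusted p by edgeR = 0.449).

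Markers of cells that a cortical dissection could also hold were summed over the same libraries. The median change in homozygotes was 0.52 for 8 ependymal genes with 1 called, 0.85 for 7 olfactory bulb genes with 0 called, 0.21 for 12 progenitor and neuroblast genes with 1 called, and 0.30 for 10 meningeal genes with 0 called (edgeR). Of all genes, 0.641% were called as raised and 0.923% as lowered. The ependymal gene called, Rsph1, was raised at 0.39 and called under 17 of 30 alternatives. The progenitor gene called, Sox4, was raised at 0.35 and called under 30 of 30. Summed meningeal levels were 456 to 687 CPM in homozygotes, 406 to 571 CPM in heterozygotes and 314 to 589 CPM in wild type. Median changes were -0.014 for 12 oligodendrocyte, 0.026 for 10 endothelial and 0.033 for 8 oligodendrocyte precursor genes with 0 called in each. Of 12 microglial genes, with a median of -0.020, Fcrls was lowered at -0.24 (adjusted p = 0.0141, edgeR), and it was called under 30 of 30 alternatives. Of 10 excitatory neuron genes, with a median of -0.033, Cux1 was lowered at -0.16 (adjusted p = 0.0257, edgeR), and it was called under 23 of 30 alternatives. The part of these tissues in the marker values, beyond the fits without the libraries of high score, was not tested.

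Several of the 10 genes overlap another gene, and the strand setting of the counting is not given in the sources used here. On the opposite strand lie Gm26668 for Gfap, AC133525.2 for Aqp4, Gm15756 for Aldh1l1, Gm13872 for Slc1a2, Dip2a for S100b and Teddm2 for Glul. On the same strand lie Gm44236 and Gm45901 for Aldh1l1, Gm37310 for Slc1a3 and Mir8114 for Glul. Exons overlap for Aldh1l1 (Gm15756 and Gm45901), Slc1a2 (Gm13872) and Glul (Mir8114 and Teddm2), so their counts could be shared. Gja1, Gjb6 and Aldoc overlapped no annotated gene. Of the other astrocyte markers named, Prodh has Dgcr6 and Fgfr3 has G630022F23Rik on the opposite strand.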

How the data were processed

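The deposited values are raw whole-number counts per gene in 1 table of 25965 rows, with no normalisation by the authors visible in them. The submitters' processing notes name HISAT2 2.0.5, Trim Galore 0.4.3 and the build GRCm38; how genes were counted, and with which strand setting, is not given in the sources used here. Rows without an identifier numbered 56 and held at most 0.0835% of the counts of a library. They were kept, as were 124 rows that share a name.

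All 20 libraries were fitted together by genotype with the robust quasi-likelihood test of edgeR 4.0.16 and TMM factors (R 4.3.3) after filterByExpr, which left 16690 genes. Genes passed at an adjusted p (Benjamini-Hochberg, all tested genes) under 0.05. CPM divide counts by the TMM-scaled library size, log2 CPM used a prior count of 2, and levels per kilobase used merged exons of GENCODE M21, to which 24990 of 25909 identifiers matched. Ratios of raw counts had 0.5 added to both genes and were compared with two-sided exact permutation tests (scipy 1.17.1). A tissue score is the mean over its genes of z-scaled log2 CPM. The labels list separate samples and say no more of their origin, so p-values and intervals measure only the spread between these samples, which may be technical. No library was a copy of another: over 58 pairs of the same genotype, chi-square was at least 12.5 times its degrees of freedom. The fit was tested on simulated data.

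The members and lists were chosen with earlier results of these data known. All 10 members are named. From each of 5 related lists, the genes called and the 4 of smallest p in homozygotes against wild type could be named, and the 5 genes most alike in pattern. 1 gene that this rule names is not reported here. Alternatives were edgeR with DESeq2 size factors, DESeq2 1.42.0 itself, limma 3.58.1 voom, other filters, the replicate block, fits of only 2 genotypes and each library left out. Fits that leave out libraries by tissue score, or use the scores as covariates, were chosen after seeing the data.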

Additional observations from a re-analysis of the deposited data

How the results depend on the processing

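Of 1190 values of single markers under an alternative, 1114 kept their direction and side of the threshold, 31 newly passed it and 45 changed sign. None could lose a call, since no marker was called in the main fit. In homozygotes against wild type the number of markers called, 0 of 10, was 3 with DESeq2, 2 with limma voom, 1 with the replicate block (Aqp4), 3 with the high-ependymal libraries left out, 3 with the scores as covariates and 0 to 3 with single libraries left out (3 without homozygous replicate 2). Against heterozygotes it was 1 with the high-ependymal libraries left out and 0 to 1 with single libraries left out. For the trend it was 3 with DESeq2, 1 with voom, 1 with the block (Aqp4), 3 with the high-ependymal libraries left out, 2 with the covariates and 0 to 2 with single libraries left out (Aldh1l1 and Gjb6 without homozygous replicate 2, Aqp4 without homozygous replicate 3 or 6). The replicate numbers do not pair the libraries: 18 pairs of the same number had correlations of -0.10 to 0.14, and 4 correlated best with their own number. With the block, 387 of all genes were called in homozygotes, beside 261 without it. Paired by number, which leaves out homozygous replicates 7 and 8, the ratios differed from wild type by -0.42 (Gjb6 over Gja1) and -0.11 (Slc1a2 over Slc1a3). The exact sign-flip p was 0.0313 each, the smallest possible. Since the numbers do not pair the libraries, these p-values are no further support. For Gjb6 over Gja1 every such pair had to be negative, as the ranges do not overlap.

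Signs changed as follows, and the cause was not tested. In homozygotes against wild type they did for Gfap (-0.035), Gja1 (-0.0099) with the high-ependymal libraries left out and for Gfap (-0.15), Slc1a3 (-0.0090) and Gja1 (-0.062) with the covariates. In heterozygotes against wild type they did for Aldoc (0.0032) and S100b (0.012) with voom, Aldh1l1 (-0.015) with the high-ependymal libraries left out, and Gfap (-0.017) and Aldh1l1 (-0.029) with the covariates. In homozygotes against heterozygotes they did for Slc1a3 (0.016) with the block, Gfap (-0.15) and Gja1 (-0.034) with the high-ependymal libraries left out, Gja1 (-0.00071) and the Slc1a2 to Slc1a3 ratio (0.015) with the high-olfactory ones left out, and Gfap (-0.14), Aqp4 (-0.0040) and Gja1 (-0.066) with the covariates. In the trend they did for Gfap (-0.013) and Gja1 (-0.0041) with the high-ependymal libraries left out, and Gfap (-0.075), Slc1a3 (-0.0038) and Gja1 (-0.030) with the covariates.

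With single libraries left out, heterozygous values against wild type ran from -0.012 to 0.027 for Aldh1l1, from -0.043 to 0.033 for Aldoc, from -0.040 to 0.012 for Glul and from -0.020 to 0.025 for S100b. Homozygous values against heterozygotes ran from -0.015 to 0.061 for Gja1 and from -0.033 to 0.027 for Slc1a3. Heterozygous ratios against wild type ran from -0.18 to -0.088 for Gjb6 over Gja1, which passed without heterozygous replicate 6 (exact permutation p = 0.0281), and from -0.087 to -0.057 for Slc1a2 over Slc1a3, which did not pass without wild-type replicate 1, 2, 3 or 4 (exact permutation p = 0.0541 to 0.0606).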
